A study of Mus musculus with 12 samples.

Results

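The genes described here encode the subunits of the mitochondrial respiratory chain and of the ATP synthase in lower abdominal muscle. Genes were taken by symbol, but this set was chosen with earlier results of these data known. It holds every gene whose platform symbol begins Ndufa, Ndufb, Ndufc, Ndufs, Ndufv, Uqcr, Cox4i, Cox5, Cox6, Cox7, Cox8 or Atp5. Sdha, Sdhb, Sdhc, Sdhd and Cyc1 were added by name. Of 88 such genes with a named probe, 83 were measured, among 10575 genes measured in all. To count as measured, a gene needed a probe with a detection p-value under 0.05 on 4 or more arrays out of 12. The measured genes comprised 34 of complex I, 3 of complex II, 8 of complex III, 15 of complex IV, 16 of complex V (the ATP synthase) and 7 accessory genes, all of them Ndufaf assembly factors of complex I.

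RNA of the muscle was hybridised to Illumina bead arrays, 1 array per sample, with 4 arrays of AromhumH, 4 of AromhumL and 4 of wild type (WT). All mice were FVB/N males aged 1 month, and per the labels both AromhumH and AromhumL carry human aromatase as a transgene, expressed at a higher level in AromhumH and at a lower level in AromhumL. WT mice, the controls, are not transgenic. Aromatase converts androgens into oestrogens. The promoter that drives it, the number of founders and whether each array was a separate animal are not stated in the labels. The p-values therefore describe the spread from array to array, part of which may be technical.

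The respiratory chain passes electrons from NADH (complex I) and succinate (complex II) through complex III to oxygen at complex IV, and the proton gradient that complexes I, III and IV build drives the ATP synthase. Skeletal muscle is among the tissues richest in these proteins, and complex IV there holds muscle isoforms, such as those encoded by Cox6a2, Cox7a1 and Cox8b, in place of widely expressed ones. Nuclear genes of the chain are known targets of nuclear respiratory factor 1 (NRF1), GA-binding protein (GABP) and oestrogen-related receptors (ERR), which the coactivator encoded by Ppargc1a assists.

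Promoter windows, each of 300 bases from 250 before to 50 after an annotated gene start (RefSeq, GRCm38.p6), were matched by gene number for 70 of the 83 genes, giving 75 windows. Letters of the NRF1 motif, GCGCANGCG on either strand, stood in 21 of the 75 windows (28%), against 6.25% of all 32851 mouse windows and 8.58% of the 21263 windows of protein-coding genes. Letters of the GABP motif, CCGGAAG on either strand, stood in 18 windows (24.0%), against 8.86% of all windows and 11.6% of protein-coding ones. Together 32 genes held at least 1 of these motifs, and 6 held both (Atp5h, Atp5k, Atp5l, Cox6a1, Sdhd and Uqcr11). The ERR motif TCAAGGTCA stood in 2 windows (2.67%, against 0.423% of all windows), those of Atp5g3 and Sdhd. These matches describe letters and not occupied sites. None of the 3 motifs contains another.

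The windows of 4 genes are shown because the comparisons below turn on these genes. They lie at chr2:174464052-174464351 (minus strand) for Atp5e, chr17:66101510-66101809 (minus strand) for Ndufv2, chr4:140961021-140961320 (plus strand) for Sdhb and chr5:115348909-115349208 (minus strand) for Cox6a1. Capitals mark motif letters: the GABP motif in Atp5e (as its reverse complement) and Sdhb, none of the 3 motifs in Ndufv2, and in Cox6a1 an NRF1 run that matches on both strands, a further NRF1 match and a reversed GABP motif.
Atp5e: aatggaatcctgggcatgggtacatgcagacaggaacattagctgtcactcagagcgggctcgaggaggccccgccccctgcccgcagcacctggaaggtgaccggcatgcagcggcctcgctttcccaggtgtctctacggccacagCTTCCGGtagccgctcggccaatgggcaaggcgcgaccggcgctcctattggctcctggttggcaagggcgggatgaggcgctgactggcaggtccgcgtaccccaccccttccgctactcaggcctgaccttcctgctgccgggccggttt
Ndufv2: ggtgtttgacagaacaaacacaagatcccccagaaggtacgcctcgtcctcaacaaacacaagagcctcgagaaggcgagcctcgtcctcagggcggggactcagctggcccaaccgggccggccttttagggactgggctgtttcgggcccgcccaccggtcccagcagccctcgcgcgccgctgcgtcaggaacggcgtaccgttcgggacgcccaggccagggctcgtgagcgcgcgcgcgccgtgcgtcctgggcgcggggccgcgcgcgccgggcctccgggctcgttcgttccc
Sdhb: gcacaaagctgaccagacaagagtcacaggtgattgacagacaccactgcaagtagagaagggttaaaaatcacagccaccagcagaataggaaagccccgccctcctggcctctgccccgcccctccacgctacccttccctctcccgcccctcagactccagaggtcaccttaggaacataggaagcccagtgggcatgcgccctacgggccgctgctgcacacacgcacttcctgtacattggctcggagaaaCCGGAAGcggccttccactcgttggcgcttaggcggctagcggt
Cox6a1: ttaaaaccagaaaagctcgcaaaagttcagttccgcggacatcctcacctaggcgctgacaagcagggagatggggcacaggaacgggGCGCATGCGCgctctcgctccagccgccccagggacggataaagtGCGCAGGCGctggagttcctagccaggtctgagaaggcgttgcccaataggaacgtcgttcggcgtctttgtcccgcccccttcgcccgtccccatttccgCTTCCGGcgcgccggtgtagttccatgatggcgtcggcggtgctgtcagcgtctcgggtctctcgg

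The median change was also taken with and without these letters. In AromhumH versus WT the median log2 change was −0.08 over the 20 genes with the NRF1 letters and −0.08 over the matched genes without them, and it was −0.08 with and −0.08 without the GABP letters. In AromhumL versus WT the medians were −0.06 with and −0.06 without the NRF1 letters, and −0.13 with and −0.02 without the GABP letters. In AromhumH versus AromhumL they were 0.00 with and −0.06 without the NRF1 letters, and −0.01 with and −0.07 without the GABP letters. No test was made of these medians.

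The genes were among the brightest on the arrays. Their probes lay at a median percentile of 98.1 among detected probes, and 66 of the 83 lay above the 90th. On the log2 scale of normalized intensity, used for all levels here, the mean level over the 12 arrays ran from 4.76 to 14.49, with a median of 12.43. The highest raw intensity of any of their probes was 29022, against 33313 for the brightest probe on the arrays. The median SD within a group was 0.183, smaller than the 0.227 over all genes tested. The most even genes were Atp5j2, Cox6a2 and Uqcr11, with pooled SDs of 0.0472, 0.06 and 0.0682, and the most variable were Atp5md, Ndufb4 and Cox7b, with 0.689, 0.537 and 0.447 (apart from Cox6a2 and Atp5md, named after their values were seen). All 7 skeletal muscle markers were detected on every array, and their summed linear level was 157800 to 163300 in AromhumH, 159200 to 161600 in AromhumL and 161800 to 166800 in WT.

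Expression of the chain differed little between the groups. Changes are given as log2 differences of group means, and a gene was called changed at a limma p-value below 0.05 after Benjamini-Hochberg adjustment over all 10575 genes. In AromhumH versus WT 0 of the 83 genes were called, where 1.18% of all genes were. In AromhumL versus WT 0 were called, where 0% of all genes were. In AromhumH versus AromhumL 2 were called (2.41%), where 6.03% of all genes were. Of the 2, Atp5e was higher in AromhumH (4.02% of all genes were called higher) and Ndufv2 lower (2.01% called lower). At an unadjusted limma p under 0.05 the counts were 15 in AromhumH versus WT (18.1%, against 16.7% of all genes), 5 in AromhumL versus WT (6.02%, against 8.37%) and 11 in AromhumH versus AromhumL (13.3%, against 24.9%). Both directions together, these shares were near or below those of all genes. Taken by direction, however, the 15 genes in AromhumH versus WT were 14 lower (16.9%, against 6.6% of all genes) and 1 higher (1.2%, against 10.1% of all genes). No test was made of these shares. AromhumH and AromhumL were set against the same WT arrays, and each transgenic line also entered the comparison between the lines.

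The bounds on these changes were narrow for most of the genes. The 95% confidence interval lay within a 1.5-fold change either way for 67 of 83 genes in AromhumH versus WT (80.7%, against 63.6% of all genes), for 67 in AromhumL versus WT (80.7%, against 70.1%) and for 62 in AromhumH versus AromhumL (74.7%, against 56.9%). Changes ran from −0.49 (Sdhb) to 0.66 (Atp5e) in AromhumH versus WT and from −0.75 (Atp5md) to 0.30 (Sdhc) in AromhumL versus WT. Between the lines they ran from −0.50 (Ndufaf7) to 0.79 (Atp5e). Narrow intervals were not limited to the chain. In AromhumH versus WT the share within a 1.5-fold change was 100% over fast fibre genes and 80% over electron carriers. It was 57.1% over regulators of mitochondrial biogenesis (lists given below). The chain genes were bright, and no comparison was made with other genes of like brightness.

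**Figure D1:**
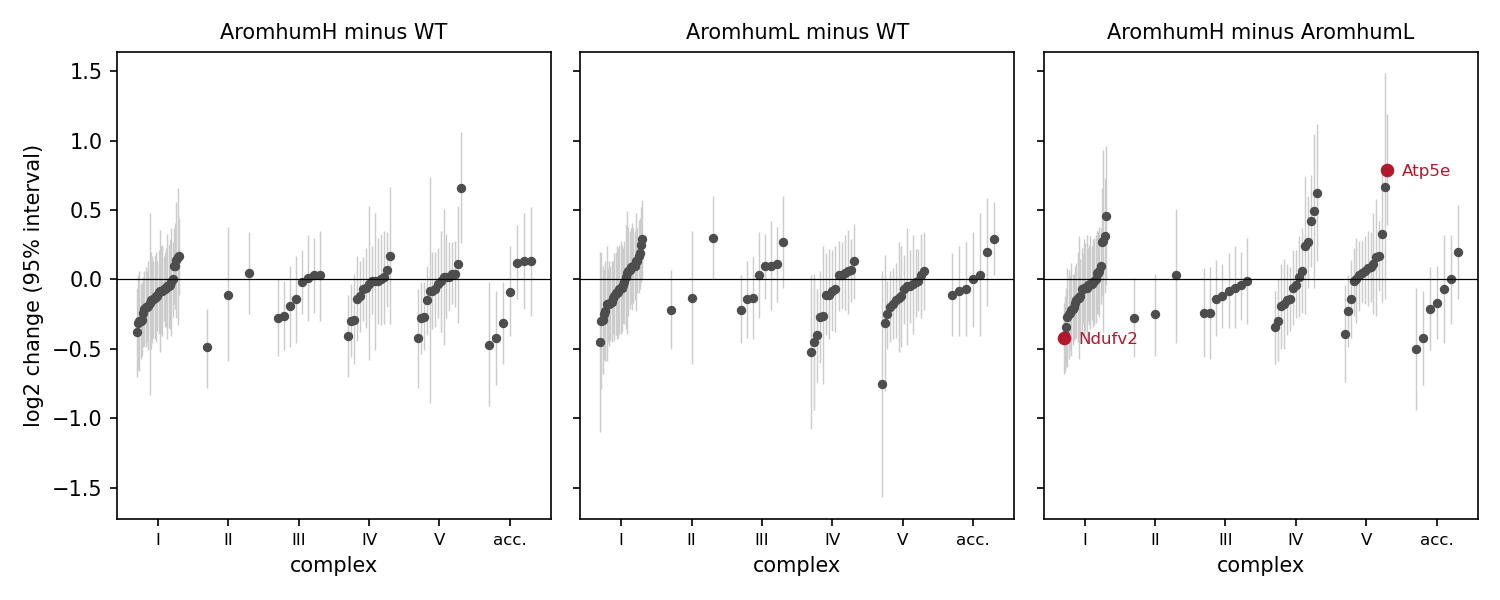
Log2 change of each of the 83 measured genes by complex (acc., accessory assembly factors), with the 95% confidence interval as a grey line; panels give AromhumH minus WT, AromhumL minus WT and AromhumH minus AromhumL. Red points are the genes called at an adjusted p under 0.05, Atp5e and Ndufv2 in the comparison of the lines, and most other points lie close to 0.

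The small changes leaned downward in the transgenic lines. In AromhumH versus WT 59 of the 83 genes were below 0 (71.1%, against 49% of all genes), with a median of −0.08 against 0.01 over all genes tested. In AromhumL versus WT 52 were below 0 (62.7%, against 48.7%), with a median of −0.07 against 0.01. In AromhumH versus AromhumL 54 were below 0 (65.1%, against 50.5%), with a median of −0.06 against 0.00. Single arrays spanned a wider range than these medians. The mean over the 83 genes, each taken minus its own mean over the 12 arrays, was 0.00, −0.15, 0.01 and −0.03 on AromhumH arrays 1 to 4, 0.07, −0.06, −0.21 and 0.15 on AromhumL arrays 1 to 4, and −0.06, 0.06, 0.08 and 0.13 on WT arrays 1 to 4. The 3 groups overlapped, and AromhumL held both the lowest and the highest array. The median in AromhumL versus WT was 0.02 without AromhumL 3, the array with the lowest mean. Without AromhumH 2, the lowest AromhumH array, the median was −0.03 in AromhumH versus WT and −0.01 in AromhumH versus AromhumL. In lists of other mitochondrial and muscle genes given below, the share below 0 varied. In AromhumH versus WT it ran from 44.4% (slow fibre genes) to 77.8% (nucleotide exchange), with fast fibre genes at 70%. In AromhumL versus WT it ran from 28.6% (regulators) to 85.7% (skeletal muscle markers). Whether the lean is particular to the chain was not tested.

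Some genes separated the groups completely, which is given as a count with no test. In AromhumH versus WT 12 of the 83 genes (14.5%) had all 4 AromhumH arrays on one side of all 4 WT arrays, against 8.67% of all genes. Atp5e lay above, as 5.34% of all genes did, and 11 lay below (Ndufa3, Ndufa10, Ndufa12, Ndufs3, Ndufv2, Sdhb, Uqcrh, Cox7a1, Atp5j, Atp5pb and Ndufaf5), where 3.33% of all genes lay below. In AromhumL versus WT 2 genes, Cox6b2 and Atp5j, lay below (2.41%) and 0 above, where 1.68% of all genes lay below and 4.24% on either side. Between the lines 11 were separated (13.3%, against 15.8% of all genes), with 4 above (7.73% of all genes) and 7 below (8.05% of all genes).

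**Figure D2:**
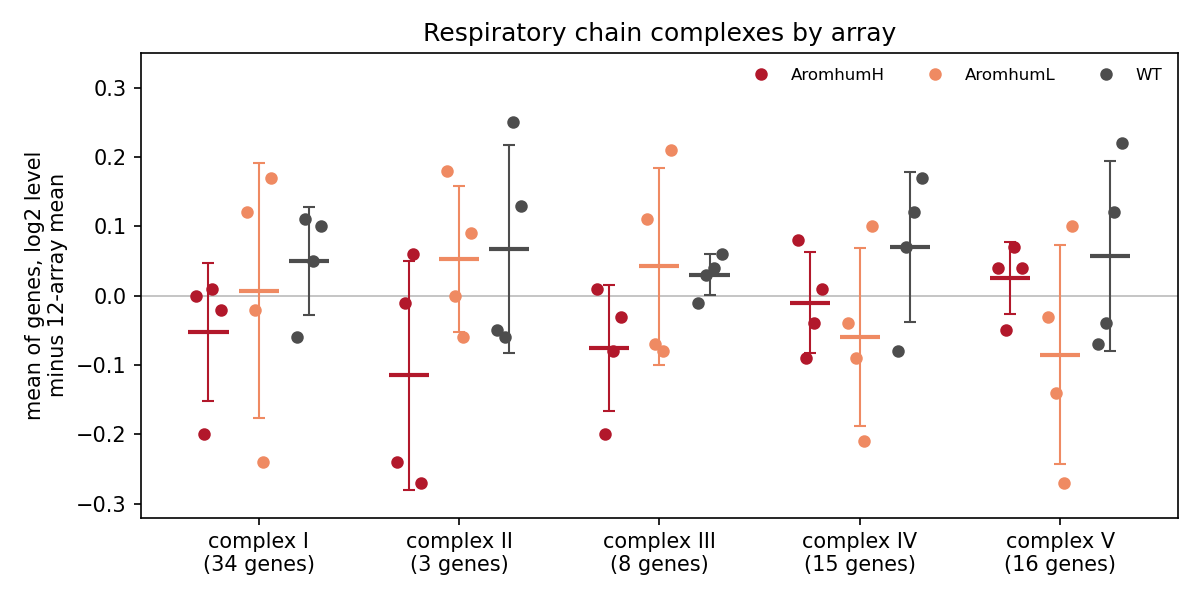
Mean log2 level over the measured genes of each complex, each gene taken minus its mean over the 12 arrays, for AromhumH, AromhumL and WT; points are single arrays, the horizontal line is the group mean and the bar its SD (n = 4). The groups overlap in every complex, and the lowest complex I and complex V means are those of AromhumL 3, at −0.24 and −0.27.

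Complex I, which oxidises NADH, had 28 of 34 measured genes below 0 in AromhumH versus WT, with a median of −0.10 and 0 called. The medians were −0.06 in AromhumL versus WT and −0.06 in AromhumH versus AromhumL. Ndufv2, an iron-sulfur subunit of the NADH-oxidising module, fell in AromhumH relative to AromhumL. Its log2 level was 12.93, 12.98, 12.97 and 12.75 on the AromhumH arrays, 13.29, 13.28, 13.35 and 13.40 on the AromhumL arrays, and 13.34, 13.08, 13.17 and 12.98 on the WT arrays. Every AromhumH array was below every AromhumL array, and WT lay between them, just above AromhumH and overlapping AromhumL. The change between the lines was −0.42 (SE 0.119, 95% interval −0.68 to −0.17, adjusted p = 0.0484). Against WT it was −0.24 in AromhumH (adjusted p = 0.336) and 0.19 in AromhumL (adjusted p = 0.652).

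Ndufv1, the flavin-bearing partner of Ndufv2, had a change of −0.34 between the lines (adjusted p = 0.125), again with every AromhumH array below every AromhumL array, and of 0.29 in AromhumL versus WT (adjusted p = 0.592). Ndufa10, a supernumerary subunit, stood at −0.40 between the lines (SE 0.128, adjusted p = 0.0737) and at −0.30 in AromhumH versus WT (adjusted p = 0.246). The smallest complex I p in AromhumH versus WT was that of Ndufb7, a subunit of the membrane arm, at −0.38 (adjusted p = 0.215). Its level was 9.10, 9.29, 9.51 and 9.30 on the AromhumH arrays, 9.75, 9.40, 9.07 and 9.50 on the AromhumL arrays, and 9.51, 9.63, 9.71 and 9.88 on the WT arrays, so that AromhumH met WT at a single pair of arrays. Ndufs7, an iron-sulfur subunit near the quinone site, stood at −0.09, −0.02 and −0.07 in the 3 comparisons (AromhumH versus WT, AromhumL versus WT, AromhumH versus AromhumL). Of the 34 entries 1 is Ndufs5-ps, a symbol that the annotation gives as a pseudogene. The 7 assembly factors had medians of −0.09, 0.00 and −0.17 in the same 3 comparisons and 0 calls. Among them Ndufaf5, which modifies a subunit during assembly, stood at −0.42 in AromhumH versus WT (adjusted p = 0.189) and −0.42 versus AromhumL (adjusted p = 0.117), with AromhumH below both other groups on all arrays. A further Ndufaf5 probe, detected on all arrays at a mean level of 10.62 against 11.03 for the brightest, stood at −0.04 versus WT and 0.01 versus AromhumL.

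Complex II, succinate dehydrogenase, was represented by Sdhb, Sdhc and Sdhd. Sdhb, the iron-sulfur subunit, had the smallest p of the 83 genes in AromhumH versus WT. Its level was 11.77, 11.72, 11.77 and 11.61 on the AromhumH arrays, 12.23, 11.79, 11.78 and 12.17 on the AromhumL arrays, and 12.13, 12.09, 12.31 and 12.31 on the WT arrays. All AromhumH arrays lay below all arrays of the other groups, while the AromhumL arrays fell into a low and a high pair. The change in AromhumH versus WT was −0.49 (SE 0.134, 95% interval −0.78 to −0.21), which did not pass (adjusted p = 0.0836). A second bright Sdhb probe stood at −0.46 and a dim one, at a mean level of 5.6, at 0.10. The membrane anchors Sdhc and Sdhd, which share no such pattern, stood at 0.05 and −0.11 in AromhumH versus WT, both overlapping WT, and Sdhc at 0.30 in AromhumL versus WT (adjusted p = 0.592). The Sdha probe, for the flavoprotein subunit, was detected on 0 arrays, as was that of Ndufs1 in complex I, and nothing is given for either.

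Complex III, which passes electrons from ubiquinol to cytochrome c, had medians of −0.08 in AromhumH versus WT, 0.06 in AromhumL versus WT and −0.10 in AromhumH versus AromhumL over 8 genes, with 0 called in each. All 8 were below 0 between the lines, none of them at an unadjusted p under 0.05, and their intervals all lay within a 1.5-fold change. Uqcrh, the hinge protein beside cytochrome c1, had levels of 13.65, 13.65, 13.61 and 13.72 in AromhumH, 13.88, 13.54, 13.59 and 13.80 in AromhumL, and 13.87, 13.96, 13.95 and 13.89 in WT. AromhumH was below WT on all arrays, at a change of −0.26 (adjusted p = 0.27). The core protein gene Uqcrc1 stood at −0.14 in AromhumH versus WT and −0.24 versus AromhumL (adjusted p = 0.337), and Cyc1, the haem protein that hands electrons to cytochrome c, at −0.19 in AromhumH versus WT. Uqcrfs1, the Rieske iron-sulfur protein, was detected on only 7 of 12 arrays, at levels from 4.44 to 5.21, and stood at 0.03 in AromhumH versus WT.

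Complex IV, cytochrome c oxidase, had medians of −0.03, −0.08 and −0.04 over 15 genes in AromhumH versus WT, AromhumL versus WT and AromhumH versus AromhumL, with 0 called. Cox7a1, the muscle isoform of subunit VIIa, had levels of 13.18, 13.11, 13.38 and 13.46 in AromhumH, 13.82, 13.52, 13.28 and 13.70 in AromhumL, and 13.74, 13.77, 13.61 and 13.63 in WT. AromhumH lay below WT on all arrays and overlapped AromhumL. The change in AromhumH versus WT was −0.41 (SE 0.138, adjusted p = 0.156) and that versus AromhumL −0.30 (adjusted p = 0.195). Cox7a2, the widely expressed isoform of the same subunit, stood at 0.00 in AromhumH versus WT and 0.27 versus AromhumL (adjusted p = 0.298).

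Cox6a1, the widely expressed isoform of subunit VIa, had levels of 10.99, 9.96, 10.14 and 10.44 in AromhumH, 9.71, 9.93, 9.48 and 9.91 in AromhumL, and 9.62, 10.38, 10.68 and 10.15 in WT. AromhumH was above AromhumL on all arrays and mixed with WT. The change was 0.62 versus AromhumL (SE 0.232, adjusted p = 0.111; 0.48 on another probe) and 0.17 versus WT (adjusted p = 0.764). Fitted with array brightness, its change versus AromhumL was 0.24. Cox6a2, the muscle isoform, ran only from 14.35 to 14.64 over the 12 arrays and stood at −0.07, 0.07 and −0.14 in the same 3 comparisons.

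The muscle and general isoforms did not keep one ratio across arrays. The difference of Cox7a1 minus Cox7a2, taken minus its mean over the 12 arrays because levels of different probes are not comparable, was −0.51, −0.42, −0.31 and −0.07 in AromhumH, 0.37, 0.31, 0.05 and 0.24 in AromhumL, and 0.47, 0.40, −0.24 and −0.30 in WT. Each AromhumH array was below each AromhumL array, and WT split into a high and a low pair. The difference of Cox6a2 minus Cox6a1 was −1.01, 0.10, 0.01 and −0.44 in AromhumH, 0.47, 0.21, 0.67 and 0.35 in AromhumL, and 0.53, −0.22, −0.59 and −0.07 in WT. It too was lower in every AromhumH than in every AromhumL array. WT 3 and WT 4, which lay low in the Cox7a pair, were the brightest WT arrays, with mean raw intensities of 359.8 and 361.7 against 267.4 and 282.6 for WT 1 and WT 2, and AromhumH 1, lowest in both pairs, was the brightest array of all at 373.2. The part of brightness in these differences was not tested. AromhumH and AromhumL overlapped in the other isoform pairs taken: Cox4i2 minus Cox4i1, Cox6b2 minus Cox6b1 and Atp5g3 minus Atp5g2. Of all single genes 15.8% separated the lines completely, and no such share was taken for differences between genes.

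**Figure D3:**
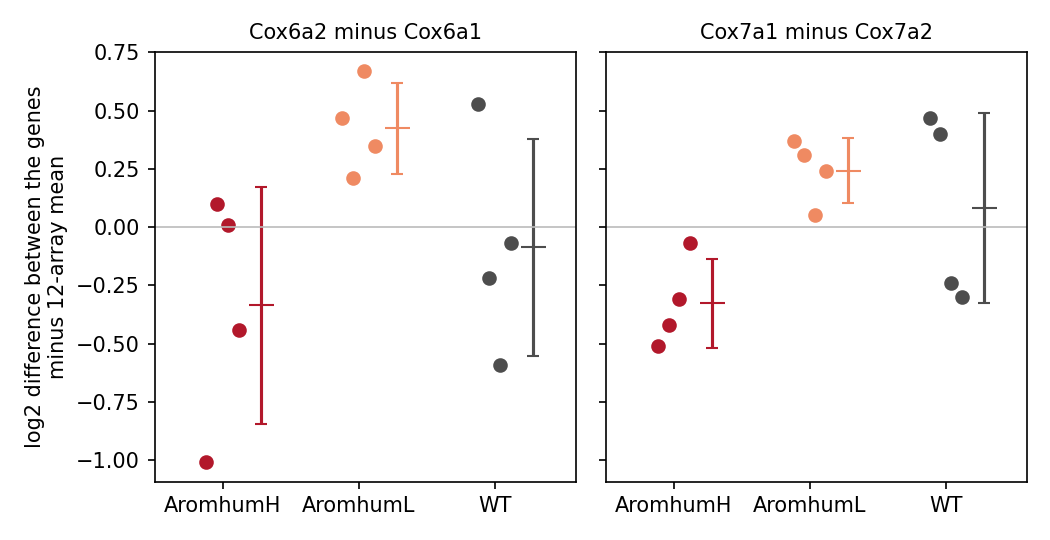
Difference in log2 level between the muscle and the widely expressed isoform gene of complex IV subunits VIa (left) and VIIa (right), minus its mean over the 12 arrays, in AromhumH, AromhumL and WT; points are arrays and bars give the mean and SD (n = 4). All AromhumH points lie below all AromhumL points in both panels, and WT overlaps both lines.

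Cox4i1, the main isoform of subunit IV, stood at −0.01, 0.03 and −0.04 in the 3 comparisons, and Cox8b, the muscle isoform of subunit VIII, at −0.12, 0.03 and −0.15. Ndufa4, now placed in complex IV, had the smallest p of the complex between the lines, at −0.34 (adjusted p = 0.106) with every AromhumH array below every AromhumL array, and stood at −0.30 in AromhumH versus WT (adjusted p = 0.249). Cox7b, a small structural subunit, had levels of 9.46, 9.27, 9.41 and 9.29 in AromhumH, 8.64, 8.59, 8.81 and 9.41 in AromhumL, and 8.56, 9.19, 9.69 and 10.11 in WT. The groups overlapped, at −0.03 in AromhumH versus WT (adjusted p = 0.978), −0.52 in AromhumL versus WT (adjusted p = 0.605) and 0.49 between the lines (adjusted p = 0.257). Cox6b1 and Cox7a2l, a factor of supercomplex assembly, stood at −0.01 and −0.14 in AromhumH versus WT. Cox5b, a core-associated subunit, stood at −0.06 between the lines on its brightest probe and −0.61 on another. Cox6b2 and Cox4i2, isoforms of testis and lung, were near the detection limit, detected on 9 and 6 arrays, and Cox6b2 stood at −0.40 in AromhumL versus WT (adjusted p = 0.592) and 0.42 between the lines (adjusted p = 0.111).

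Complex V had medians of −0.02 in AromhumH versus WT, −0.10 in AromhumL versus WT and 0.07 in AromhumH versus AromhumL over 16 genes. In AromhumL versus WT 14 of the 16 lay below 0, with 0 called and 1, Atp5j, at an unadjusted limma p under 0.05. Atp5e, which encodes the epsilon subunit of the central stalk, rose in AromhumH relative to AromhumL. Its level was 10.17, 9.85, 10.08 and 10.63 on the AromhumH arrays, 9.42, 9.51, 9.01 and 9.63 on the AromhumL arrays, and 9.12, 9.58, 9.73 and 9.65 on the WT arrays. Every AromhumH array was above every array of both other groups, which overlapped each other. The change was 0.79 versus AromhumL (SE 0.187, 95% interval 0.39 to 1.19, adjusted p = 0.0278), 0.66 versus WT (adjusted p = 0.0918) and, in AromhumL versus WT, −0.13 (adjusted p = 0.861).

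Genes of the alpha, beta and measured proton ring subunits (Atp5a1, Atp5b, Atp5g2 and Atp5g3) were not called in any comparison. A further ring gene, Atp5g1, had 0 named probes. Atp5b, the catalytic beta subunit, stood at 0.04 in AromhumH versus WT and −0.02 in AromhumL versus WT, with levels between 14.18 and 14.44 on all arrays. Atp5a1, the alpha subunit, stood at 0.02 in AromhumH versus WT and −0.31 in AromhumL versus WT (adjusted p = 0.687; 0.14 on another probe). The ring subunit genes Atp5g2 and Atp5g3 stood at −0.01 and 0.02 in AromhumH versus WT and at −0.12 and −0.07 in AromhumL versus WT. Between the lines Atp5b stood at 0.06, Atp5g2 at 0.11 and Atp5g3 at 0.09. Atp5a1 stood at 0.33 between the lines (adjusted p = 0.406), and at −0.05 on another probe. Its 95% interval, −0.16 to 0.82, takes in the 0.79 of Atp5e. Atp5c1, the gamma subunit of the central stalk and so the neighbour of the epsilon subunit, lay the other way from Atp5e, at −0.42 in AromhumH versus WT (SE 0.167, adjusted p = 0.21) and −0.39 versus AromhumL (adjusted p = 0.161). Its level was 12.26, 12.73, 12.48 and 12.24 in AromhumH, 12.75, 12.77, 12.78 and 12.98 in AromhumL, and 13.21, 12.39, 12.86 and 12.95 in WT. AromhumH was below AromhumL on all arrays and overlapped WT.

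Atp5j, a coupling factor of the peripheral stalk, was below WT on all arrays of both lines, at −0.27 in AromhumH (adjusted p = 0.257) and −0.25 in AromhumL (adjusted p = 0.592), though another Atp5j probe stood at 0.27 in AromhumL versus WT. Atp5md, a small subunit linked to synthase dimers, had the widest spread of the 83 genes. Its level was 8.88, 8.67, 9.32 and 8.50 in AromhumH, 7.93, 7.85, 7.99 and 8.89 in AromhumL, and 7.98, 8.20, 9.31 and 10.19 in WT. The WT arrays alone covered most of the range, and its change of −0.75 in AromhumL versus WT (SE 0.384, adjusted p = 0.605) was within that spread. The high WT arrays were again the bright WT 3 and WT 4.

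**Figure D4:**
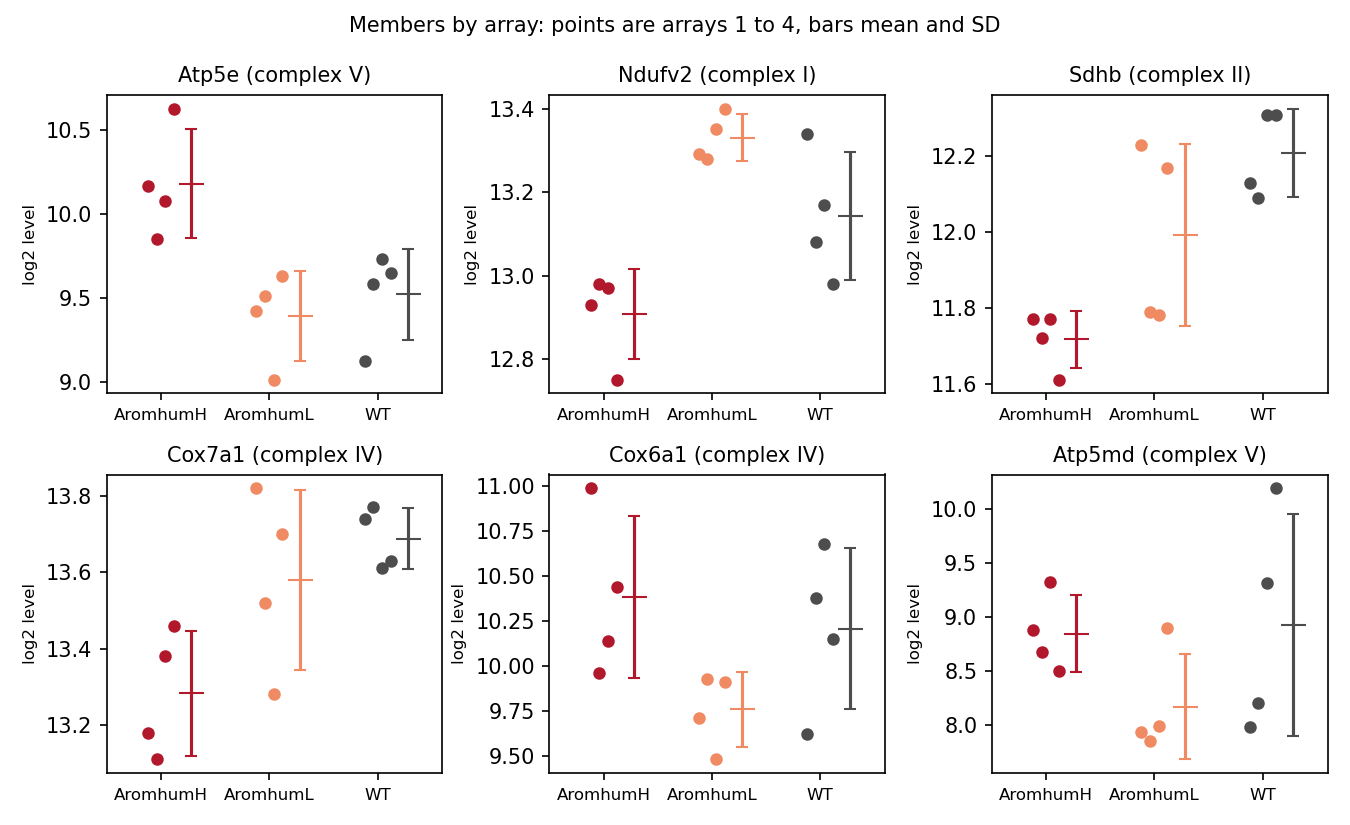
Log2 level of Atp5e, Ndufv2, Sdhb, Cox7a1, Cox6a1 and Atp5md on each array of AromhumH, AromhumL and WT, on a separate scale per gene; points are arrays 1 to 4 and bars give the mean and SD (n = 4). Atp5e lies above and Sdhb below both other groups in AromhumH, Ndufv2 separates the lines, and Atp5md spans 7.98 to 10.19 within WT.

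Both calls between the lines were lost on leaving out some single arrays and on fitting array brightness. Raw intensity averaged 334.7 ± 31.6 on the AromhumH arrays, 259 ± 25 on the AromhumL arrays and 317.9 ± 49.9 on the WT arrays (SD, n = 4 each). AromhumH was brighter than AromhumL (two-sided exact permutation p = 0.0286, the smallest that 4 against 4 arrays allow), whereas AromhumH versus WT gave an exact permutation p of 0.629 and AromhumL versus WT one of 0.114. With brightness as a covariate 0 of the 10575 genes were called between the lines. Atp5e then stood at 0.71 (adjusted p = 0.59) and Ndufv2 at −0.40 (adjusted p = 0.612), against 0.79 and −0.42 without the covariate. The change of Cox6a1 shrank in the same fit, as given above. Every AromhumH array was brighter than every AromhumL array, so brightness and line cannot be told apart in this fit. Neither Atp5e nor Ndufv2 was called without AromhumH 1, without AromhumH 4, without AromhumL 1 or without AromhumL 3. Without AromhumH 3 there were 5 calls between the lines, adding Cox6b2 (0.57, adjusted p = 0.0233), Ndufaf7 (−0.73, adjusted p = 0.0172) and Ndufa10 (−0.46, adjusted p = 0.0465). Ndufaf7, a methyltransferase of complex I assembly, was then also called versus WT (−0.70, adjusted p = 0.0397). Ndufa10 was called between the lines in 3 other alternatives too: on the authors' processed values (adjusted p = 0.0479), without background correction (adjusted p = 0.0415) and with a mean trend and robust moderation (adjusted p = 0.0387).

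Different probes of one gene did not always move together. Of 27 genes with more than 1 detected probe, 9 had probes whose changes differed by over 0.5 in a comparison (Atp5j, Atp5o, Atp5pb, Cox5b, Ndufa5, Ndufab1, Ndufb10, Ndufc2 and Sdhb). In AromhumH versus AromhumL the brightest Ndufa5 probe stood at −0.03 and the other at 0.81. The corresponding values were −0.24 and 0.43 for Ndufb10 and −0.27 and 0.31 for Ndufc2. Atp5e and Ndufv2 rested on a single detected probe each.

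Genes that work beside the chain were summarised from lists. Electron carriers and coenzyme Q synthesis (15 measured) had 0 calls and medians of −0.13 in AromhumH versus WT, −0.06 in AromhumL versus WT and −0.16 in AromhumH versus AromhumL. Gpd2, the mitochondrial glycerol phosphate dehydrogenase that feeds electrons into the quinone pool, had their smallest p in AromhumH versus WT, at −0.52 (adjusted p = 0.0539). Assembly factors of complexes II to V (20 measured) had 0 calls and medians of −0.08, 0.01 and −0.08 in the same order. Nucleotide exchange and energy transfer (9 measured) had 0 calls and medians of −0.15, −0.10 and 0.04.

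Of 21 regulators of mitochondrial biogenesis 0 were called against WT in either line. Between the lines 2 were called lower in AromhumH than in AromhumL (9.52%, against 2.01% of all genes called lower). These were Tfb2m, a factor of mitochondrial transcription, at −0.69 (adjusted p = 0.0251), and Tfb1m, a methyltransferase of mitochondrial ribosomal RNA, at −0.50 (adjusted p = 0.0278). Versus WT, Tfb2m stood at −0.29 in AromhumH and 0.40 in AromhumL. Tfb1m stood at −0.08 in AromhumH and 0.42 in AromhumL versus WT. Ppargc1a had levels of 6.75, 7.52, 8.74 and 8.09 in AromhumH, 8.28, 7.99, 7.76 and 7.06 in AromhumL, and 8.55, 8.18, 8.83 and 8.26 in WT. Its change was −0.68 in each line versus WT (adjusted p = 0.333 in AromhumH and 0.599 in AromhumL), and both lines overlapped WT. Esrra, Tfam and Gabpa stood at −0.01, −0.20 and −0.01 in AromhumH versus WT, and Nrf1 at 0.30 (adjusted p = 0.337). Of 24 genes of the mitochondrial ribosome and import 1 rose in AromhumH relative to AromhumL, the import receptor gene Tomm22 (0.81, adjusted p = 0.0295), and 0 were called against WT. That 1 of 24 is 4.17%, close to the 4.02% of all genes called higher between the lines.

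Fibre type genes gave 0 calls in all comparisons. Medians were 0.04, 0.08 and −0.01 over 9 slow and oxidative genes and −0.02, −0.01 and 0.00 over 10 fast genes, in AromhumH versus WT, AromhumL versus WT and AromhumH versus AromhumL. Between the lines 5 of the 9 slow genes lay below 0, among them the slow myosin gene Myh7 at −0.84 (adjusted p = 0.0776). The 4 above 0 were Mb (0.32), Tnnc1 (0.28), Tnnt1 (0.25) and Tnni1 (0.20). Of the slow genes 44.4% separated the lines completely, 3 above and 1 below, against 15.8% of all genes and 10% of the fast genes. At an unadjusted limma p under 0.05, 2 slow genes were higher and 2 lower (44.4%, against 24.9% of all genes). No test was made of these shares.

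Markers of other cells differed on the same arrays. Of 5 measured mesothelial markers 4 were called higher in AromhumH versus WT (80%, where 1.18% of all genes were called in either direction). Between the lines 4 were called higher in AromhumH (80%, against 4.02% of all genes). The summed linear level of the 5 was 1690 to 3056 in AromhumH, 612.8 to 1201 in AromhumL and 576.2 to 1037 in WT. For 4 measured white adipocyte markers it was 357 to 5091 in AromhumH, 994.8 to 1727 in AromhumL and 1206 to 3143 in WT, with 0 calls, and the Fabp4 probe was detected on 0 arrays. Of 5 brown adipocyte markers, Cidea and Zic1 were measured, with a summed linear level of 152.9 to 173.6 in AromhumH, 128.9 to 199.5 in AromhumL and 145.9 to 811.9 in WT. Cidea stood at −0.81 in AromhumH versus WT (adjusted p = 0.477) and −0.93 in AromhumL versus WT (adjusted p = 0.632), while Ucp1 was detected on 1 array and Elovl3 and Dio2 on 0. Of 6 fibroblast markers 1, Col1a1, was called higher in AromhumH than in AromhumL (adjusted p = 0.0486), which is 16.7%, against 4.02% of all genes. Macrophage, erythroid and endothelial markers (4, 3 and 3 measured) had 0 calls. In tissue RNA a smaller share of muscle fibres and less RNA of a gene per fibre cannot be told apart, and the part of other cells in the changes above was not tested.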

How the data were processed

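Per the file headers, the intensity table that the authors deposited was not normalized. It gives 1 linear intensity for a probe on an array, each followed by a deposited detection p-value. A separate deposited table holds processed values, whose range fits log2, and served as an alternative. How the authors transformed it, the scanner software and the genome build are not stated. Per the labels, RNA was labelled with biotin.

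The neqc function of limma 3.58.1 (R 4.3.3) corrected the background and applied quantile normalization, with an offset of 16. Of 45281 probes, 19004 were detected at p below 0.05 on at least 4 of 12 arrays. Of these probes, the brightest with 1 symbol stood for each gene, giving 10575 genes. Groups came from the sample titles. A model of 3 group means was fitted across the 12 arrays by lmFit and moderated by eBayes (9 residual and 6.53 prior degrees of freedom), and limma p-values were adjusted over the 10575 genes (Benjamini-Hochberg). The fit was tested on simulated data. The number of arrays limits the precision.

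The genes and lists were chosen with earlier results of these data known. Named are genes called, the smallest p per complex and comparison, a preset list of core subunits and isoforms, genes whose probes disagree by over 0.5 and genes detected on few arrays. Other names, among them those of groups that do not overlap, were chosen after their values were seen. Motifs were searched with Python 3.11.15. Alternatives covered background, scaling, filter, probe choice, moderation, replicate block, brightness and leaving out each array.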

Additional observations from a re-analysis of the deposited data

Results flagged for a closer look

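In 7 of 147 sets of 4 arrays (4.76%), 1 array lay far from the other 3, by Dixon's ratio of its gap to the whole range, above the 95% critical value for 4 arrays. Chance flags about 1 in 20 such sets. AromhumL 4 had the lowest Sdhc level of its group, at 12.73 against 12.92 to 12.96 (ratio 0.849), and the highest Atp5md level, at 8.89 against 7.85 to 7.99 (ratio 0.865). AromhumH 2 had the lowest Atp5b level of its group, at 14.18 against 14.40 to 14.44 (ratio 0.861). It also had the lowest mean of complex I, at −0.20 against −0.02 to 0.01 (ratio 0.853). WT 4 had the lowest Atp5l level of its group, at 13.36 against 13.60 to 13.62 (ratio 0.939), and WT 2 the highest Cox5b level, at 14.06 against 13.80 to 13.83 (ratio 0.884). AromhumL 1 had the lowest mean raw intensity of its group, at 221.62 against 267.64 to 273.94 (ratio 0.879).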

How the results depend on the processing

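Under 22 alternatives the median change of the 83 genes moved by less than the spread between arrays in all 3 comparisons. The number of genes called in AromhumL versus WT was 0 in each alternative. In AromhumH versus WT it was 0, and 1 with a mean trend and robust moderation in eBayes (Sdhb, adjusted p = 0.0468), and on leaving out 1 array it ran from 0 to 1. In AromhumH versus AromhumL it was 2, against 1 with median scaling, 1 without the detection filter and 0 with array brightness as a covariate. It was 3 on the authors' processed values, 3 without background correction and 3 with a mean trend and robust moderation, each time with Ndufa10 added, and on leaving out 1 array it ran from 0 to 5. Atp5e was called between the lines in 16 of the 22 alternatives (log2 0.64 to 0.90) and Ndufv2 in 10 (−0.45 to −0.37). The causes of these changes in calls were not tested. Counts over all genes moved on leaving out 1 array from 2 to 316 in AromhumH versus WT and from 64 to 1060 in AromhumH versus AromhumL, where the brightness covariate gave 0. Of 2697 values of the genes named by rule, which leave out Ndufa10 and its 4 gained calls, 2675 stayed on their side of the threshold, 18 lost a call, 4 gained one and 0 turned sign as a call. Of 336 medians of single complexes 333 moved by less than the spread between arrays.

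Replicate numbers are shared between groups. Deviations from the group means of same-numbered arrays correlated at −0.25 to 0.39 over 12 pairs. Pairs with different numbers were not compared, so these values cannot decide whether the numbers pair the arrays. With the replicate block 1 gene was called in AromhumH versus AromhumL, Atp5e (adjusted p = 0.0333), and Ndufv2 was not (adjusted p = 0.0735).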
